A study of Mus musculus with 2 samples.

Results

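The genes described here carry out or restrain regulated cell death: caspases, the Bcl2 family, inhibitor of apoptosis proteins, Ripk kinases, and the adaptors and sensors of inflammasomes and necrosomes. They were given as 38 gene symbols, chosen by function, and a gene was taken up if the array had a probe set whose annotation named that gene alone. On that rule 34 of the 38 genes had a probe set, 87 probe sets in all, out of 18193 genes and 34945 such probe sets on the array. Ripk1, Ripk2 and Bax had no such probe set, and Bnip3l was named only on probe sets shared with a pseudogene, so these 4 genes have no value here. Bik, a BH3-only gene, had 3 probe sets that all lay below the floor described below, which left 33 measured genes.

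Messenger RNA was profiled on 2 Affymetrix arrays, 1 from bone marrow cells of Cpdm mice and 1 from bone marrow cells of wildtype mice. Cpdm is the chronic proliferative dermatitis mutation of the mouse, a spontaneous frameshift in Sharpin that removes the SHARPIN protein from every cell of the animal. Both groups were unsorted marrow cells kept for 10 days with β-glycerophosphate at 10 mM and ascorbic acid at 50 µg/ml, supplements that drive marrow stroma towards mineralising osteoblasts, and neither received any other treatment. The sources used here do not give the age, sex or background strain of the mice, nor how many mice contributed to a culture.

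SHARPIN belongs to the ligase complex that builds linear ubiquitin chains, which marks the signalling complex of the TNF receptor and so favours NF-κB signalling over cell death. Apoptosis runs either from death receptors through FADD and caspase-8 or from mitochondria, where BH3-only proteins release BAX and BAK from the survival proteins of the Bcl2 family. Necroptosis and pyroptosis are lytic: MLKL, switched on by RIPK3, and gasdermin D, cut by inflammatory caspases, break the plasma membrane. Macrophages, which unsorted marrow cultures hold, are a main source of inflammasome proteins. All values here are transcript levels, and most of these proteins are switched on by cleavage, phosphorylation or release, which an array does not measure.

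The values are MAS5 signals, the linear brightness that the Affymetrix software gives each probe set. Signals below the 40th percentile of an array, 18.5 for Cpdm and 18.7 for wildtype, were set to that floor, and each gene is given by its brightest probe set unless another is named. Ratios are log2 of Cpdm over wildtype, and a difference of at least 2-fold was counted. With 1 array per genotype there is no error between cultures, no test and no p-value, and every difference describes these 2 arrays. Within the array pair, 18 spike-in controls had log2 ratios of 0.01 ± 0.11 (SD, n = 18 probe sets), and the brightest pair of probe sets in each of 5250 genes disagreed by an amount that corresponds to an SD of 0.32 log2 units per probe set. Both yardsticks leave out the spread between mice and cultures.

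Some differences between the arrays ran alongside genotype. Sharpin had a signal of 162 in Cpdm and 197 in wildtype, which does not check the labels, because a frameshift need not remove the transcript. Xist, the RNA of the inactive X chromosome, read 1113 in Cpdm and 247 in wildtype, and Y-chromosome genes were lower in Cpdm, Uty by 3.77-fold, Eif2s3y by 3.09-fold and Kdm5d by 3.08-fold. The array's 3 probe sets against 18S ribosomal RNA were also lower in Cpdm, by 5.16-fold to 13.5-fold. The part of sex or RNA make-up in the results below was not tested.

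Death genes were shifted upwards in the Cpdm culture, most of all the lytic pathways. Of the 33 measured genes, 7 were at least 2-fold higher in Cpdm: Pycard, Gsdmd, Bmf, Birc3, Casp1, Zbp1 and Nlrp3. That is 21.2% of the genes, against 5.84% of all 14055 measured genes. None was at least 2-fold lower, against 5.98% of all measured genes. The median log2 ratio was 0.37 over the death genes and 0.03 over all measured genes. In all, 24 death genes lay above 0 and 9 below, so 72.7% lay above 0, against 52.4% of all measured genes. With a 1.5-fold count, 13 death genes were higher and 1, Bcl2l2, was lower, where 15.7% and 13.5% of all genes pass. By role, the 7 genes were 4 of pyroptosis, 1 of necroptosis, 1 inhibitor of apoptosis and 1 BH3-only gene. The members just on either side of that limit were Nlrp3 at 2.01-fold, Zbp1 at 2.02-fold and Bcl2l11 at 1.96-fold.

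**Figure D1:**
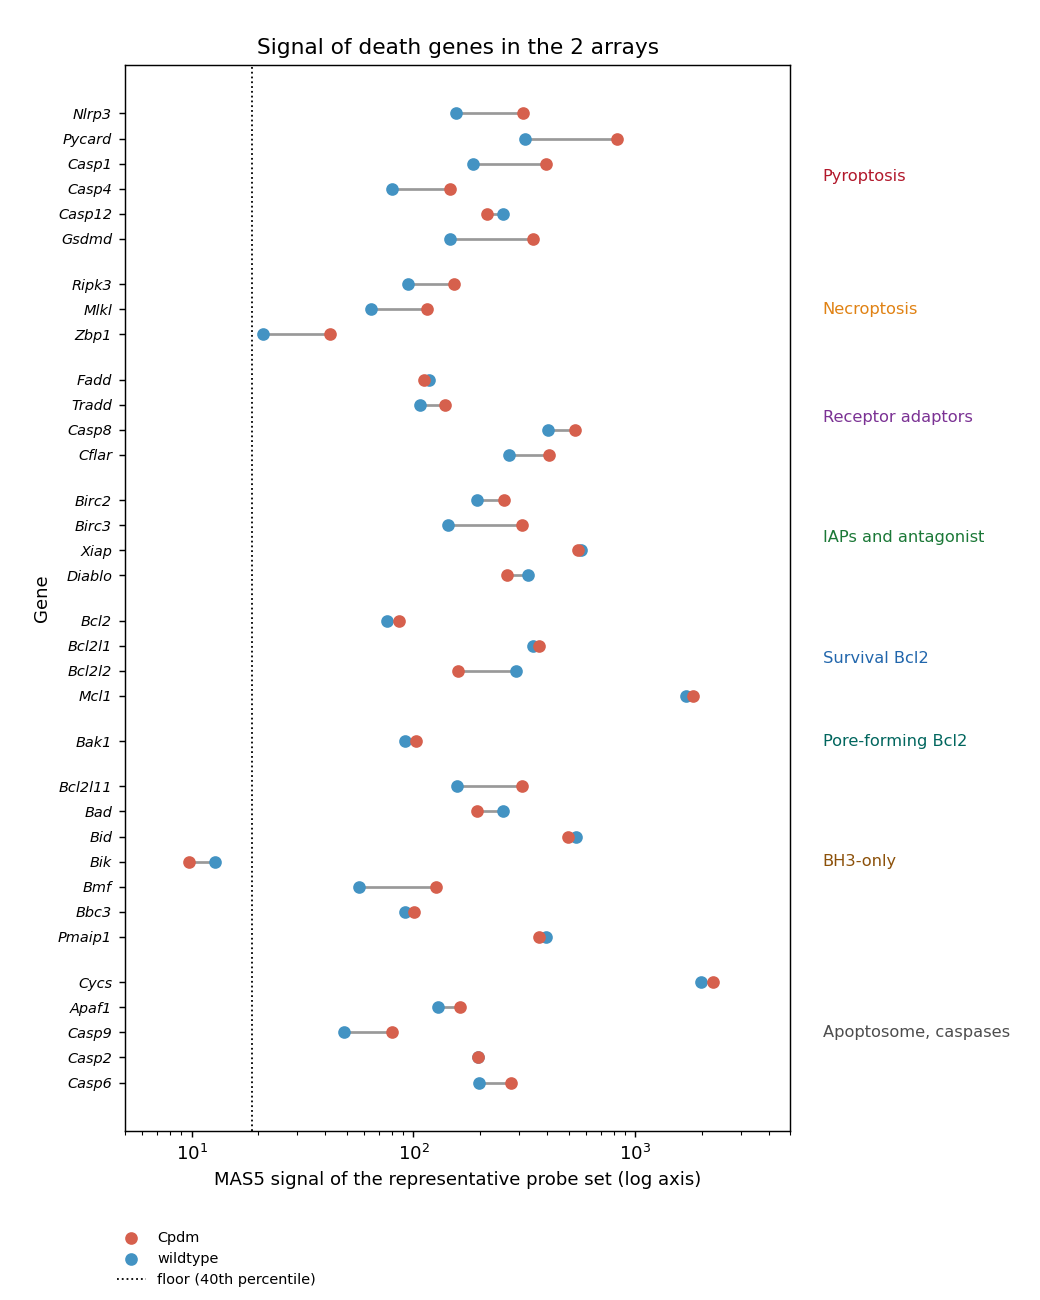
MAS5 signal (log axis) of the representative probe set of the 34 death genes with a probe set, by role, in the Cpdm and wildtype arrays, with the floor as a dotted line. The Cpdm point lies to the right for 5 of 6 pyroptosis genes and for all 3 measured necroptosis genes, while the points of Mcl1, Xiap and Casp2 nearly coincide, and Bik lies below the floor in both arrays.

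Pyroptosis genes had the largest shift. Of 6 genes, all measured, 4 passed 2-fold on the higher side and 0 on the lower side, and the median log2 ratio was 1.05. Pycard encodes ASC, the adaptor that joins inflammasome sensors to caspase-1, and read 825 in the Cpdm culture against 318 in the wildtype culture, a log2 ratio of 1.38. Of all measured genes, 2.55% had a ratio at least as high. Its other probe sets were dim and differed less: one read 38.9 in Cpdm and 35.7 in wildtype, and the other 20.7 and 7.20, the last below the floor. The mean over its 3 probe sets, with that bound among them, was a log2 ratio of 0.55.

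Gsdmd encodes gasdermin D, the pore-forming protein of pyroptosis, and read 345 in Cpdm against 146 in wildtype, or 2.36-fold higher. Casp1, whose product cuts gasdermin D and the precursors of interleukin-1β and interleukin-18, read 395 in Cpdm against 185 in wildtype, or 2.14-fold higher. Nlrp3, the sensor that assembles this inflammasome after a priming signal raises its transcript, read 312 in Cpdm against 155 in wildtype, or 2.01-fold higher. Sensor, adaptor, protease and pore protein of a single pathway were thus all at least 2-fold higher in the same culture. Casp1, Gsdmd and Nlrp3 each rest on 1 probe set, and Nlrp3 slipped just under 2-fold with quantile or spike-in scaling and to a log2 ratio of 0.94 with a pseudocount in place of the floor.

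The remaining inflammatory caspases differed from each other. Casp4, which in the mouse encodes caspase-11, the sensor of cytosolic lipopolysaccharide, read 147 in Cpdm against 80.4 in wildtype, or 1.82-fold higher. Casp12, whose product has been linked to endoplasmic reticulum stress, read 215 in Cpdm against 253 in wildtype, and 213 against 238 by its second probe set. Casp1, Casp4 and Casp12 are direct neighbours on mouse chromosome 9 with no protein-coding gene between them, and their log2 ratios were 1.10, 0.87 and -0.24. The neighbouring Casp12 therefore lay below 0 by both probe sets, within the disagreement between probe sets, where Casp1 and Casp4 lay above it.

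The 250 bases before the start sites of these neighbours and of Nlrp3 are shown because the genes stand together in the genome or the pathway and differ in their ratios. They come from RefSeq, build GRCm38.p6, 5′ to 3′, and 31 of the 38 genes had an entry. Capitals mark matches on either strand to the NF-κB consensus in Casp4 and Nlrp3, and to the gamma-activated sequence TTCNNNGAA, which STAT proteins bind, in Casp12.
Casp1, chr9:5298267-5298516, plus strand: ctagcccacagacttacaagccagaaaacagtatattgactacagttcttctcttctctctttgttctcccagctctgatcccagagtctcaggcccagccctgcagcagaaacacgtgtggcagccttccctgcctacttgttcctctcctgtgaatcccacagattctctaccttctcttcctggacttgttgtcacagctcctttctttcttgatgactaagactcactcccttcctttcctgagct
Casp4, chr9:5308599-5308848, plus strand: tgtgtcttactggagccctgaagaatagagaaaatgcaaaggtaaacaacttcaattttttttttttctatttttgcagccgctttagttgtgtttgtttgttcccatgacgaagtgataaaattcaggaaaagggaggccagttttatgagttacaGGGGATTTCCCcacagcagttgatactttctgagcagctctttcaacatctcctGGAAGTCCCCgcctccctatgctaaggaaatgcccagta
Casp12, chr9:5345226-5345475, plus strand: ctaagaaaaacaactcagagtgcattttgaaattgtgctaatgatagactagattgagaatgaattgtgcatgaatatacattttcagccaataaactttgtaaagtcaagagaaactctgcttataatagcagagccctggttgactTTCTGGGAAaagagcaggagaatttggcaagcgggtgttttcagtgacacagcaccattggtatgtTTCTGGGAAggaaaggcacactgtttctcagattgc
Nlrp3, chr11:59541319-59541568, plus strand: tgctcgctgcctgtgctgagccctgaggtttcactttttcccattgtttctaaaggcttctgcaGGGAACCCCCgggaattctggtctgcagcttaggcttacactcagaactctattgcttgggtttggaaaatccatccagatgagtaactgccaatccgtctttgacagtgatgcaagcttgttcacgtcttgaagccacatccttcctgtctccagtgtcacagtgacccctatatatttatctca

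The Casp4 window held 3 matches to the NF-κB consensus, beginning 93, 92 and 39 bases before the start site, the first pair of which overlap. The Nlrp3 window held 1, beginning 186 bases before, and its second start site had none. The Casp1 window held no match to any motif searched. Across all 32851 RefSeq windows of this length, 5.00% held the NF-κB consensus, and so did a window of Bcl2l1 and of Bbc3, whose ratios were near 0. The gamma-activated sequence was in 7.02% of all windows, and among death genes in Casp12, at 102 and 36 bases before the start, and in Ripk1, which has no value here. The repeat unit of p53 binding sites was in 1.63% of all windows and in none of the 45 windows of death genes. The motifs and the promoters shown were chosen after the ratios were seen, and matches are a description of sequence only.

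The 3 measured necroptosis genes were all higher in the Cpdm culture, with a smaller median than the pyroptosis genes. Ripk3, the kinase that phosphorylates MLKL, read 153 in Cpdm against 94.1 in wildtype, a log2 ratio of 0.70. Mlkl, the membrane-breaking effector, read 115 in Cpdm against 64.5 in wildtype, a log2 ratio of 0.84. Zbp1, an interferon-induced sensor of Z-form nucleic acid that engages RIPK3, read 42.2 in Cpdm against 20.9 in wildtype, a log2 ratio of 1.01. Its second probe set read 35.0 in Cpdm and 13.7, below the floor, in wildtype, which is at least 1.87-fold higher. Zbp1 was dim in both arrays, with a log2 ratio of 0.66 under the pseudocount and 0.90 by the second probe set alone, while Ripk3 and Mlkl rest on 1 probe set each. The median of the 3 measured genes was 0.84.

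The adaptors that link death receptors to caspase-8 were mostly slightly higher in Cpdm. None of 4 measured genes passed 2-fold, and their median log2 ratio was 0.39. Casp8, the initiator protease that also restrains necroptosis by cutting RIPK kinases, read 536 in Cpdm against 402 in wildtype, or 1.33-fold higher. Cflar encodes cFLIP, the catalytically inactive relative and partner of caspase-8 and an NF-κB target, and read 407 in Cpdm against 271 in wildtype, a log2 ratio of 0.59. All 5 of its probe sets were higher in Cpdm, with log2 ratios of 0.08, 0.30 and 0.66 for others, and a dim one reading 53.5 in Cpdm and 17.1 in wildtype, at least 2.86-fold higher.

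Fadd, the adaptor that recruits caspase-8, read 112 in Cpdm against 118 in wildtype, and its second, dimmer probe set went the other way at 52.6 in Cpdm and 28.5 in wildtype. Tradd, the adaptor of the TNF receptor, read 139 in Cpdm against 107 in wildtype. The caspase-8 branch was thus present in both cultures with no member past 2-fold by its brightest probe set.

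Among inhibitor of apoptosis genes, 1 stood out. Birc3 encodes cIAP2, a ubiquitin ligase of the TNF receptor complex whose gene is a known NF-κB target, and read 310 in Cpdm against 143 in wildtype, or 2.17-fold higher. That probe set is of a kind that can bind several transcripts, and the other Birc3 probe set was at 19.8 in Cpdm and 5.35 in wildtype, so it adds only a bound of at least 1.06-fold. Birc2, the direct neighbour of Birc3 on chromosome 9, encodes the related cIAP1 and read 256 in Cpdm against 193 in wildtype, or 1.33-fold higher. Xiap, an X-linked gene whose product blocks caspases directly, was near equal at 551 in Cpdm and 568 in wildtype, in the same arrays that differed in Xist. Diablo, whose product leaves mitochondria and relieves caspases of these inhibitors, read 264 in Cpdm against 327 in wildtype.

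The survival members of the Bcl2 family were near equal with 1 exception. Mcl1, a short-lived survival protein gene, read 1816 in Cpdm and 1694 in wildtype, and its 6 probe sets had log2 ratios between -0.08 and 0.23. Bcl2l1, which encodes BCL-XL, read 368 in Cpdm and 346 in wildtype. Bcl2 was dimmer, at 85.9 in Cpdm and 75.8 in wildtype, and its 4 measured probe sets went both ways, between -0.38 and 0.36.

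Bcl2l2, which encodes the survival protein BCL-W, was the lowest of all 33 death genes. It read 158 in Cpdm against 289 in wildtype, or 1.83-fold lower. Its other measured probe sets went the same way, at 18.6 in Cpdm and 29.9 in wildtype for one, and 7.68, below the floor, in Cpdm and 42.6 in wildtype for the other, which is at least 2.30-fold lower. Of all measured genes, 92.6% had a ratio at least as high.

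**Figure D2:**
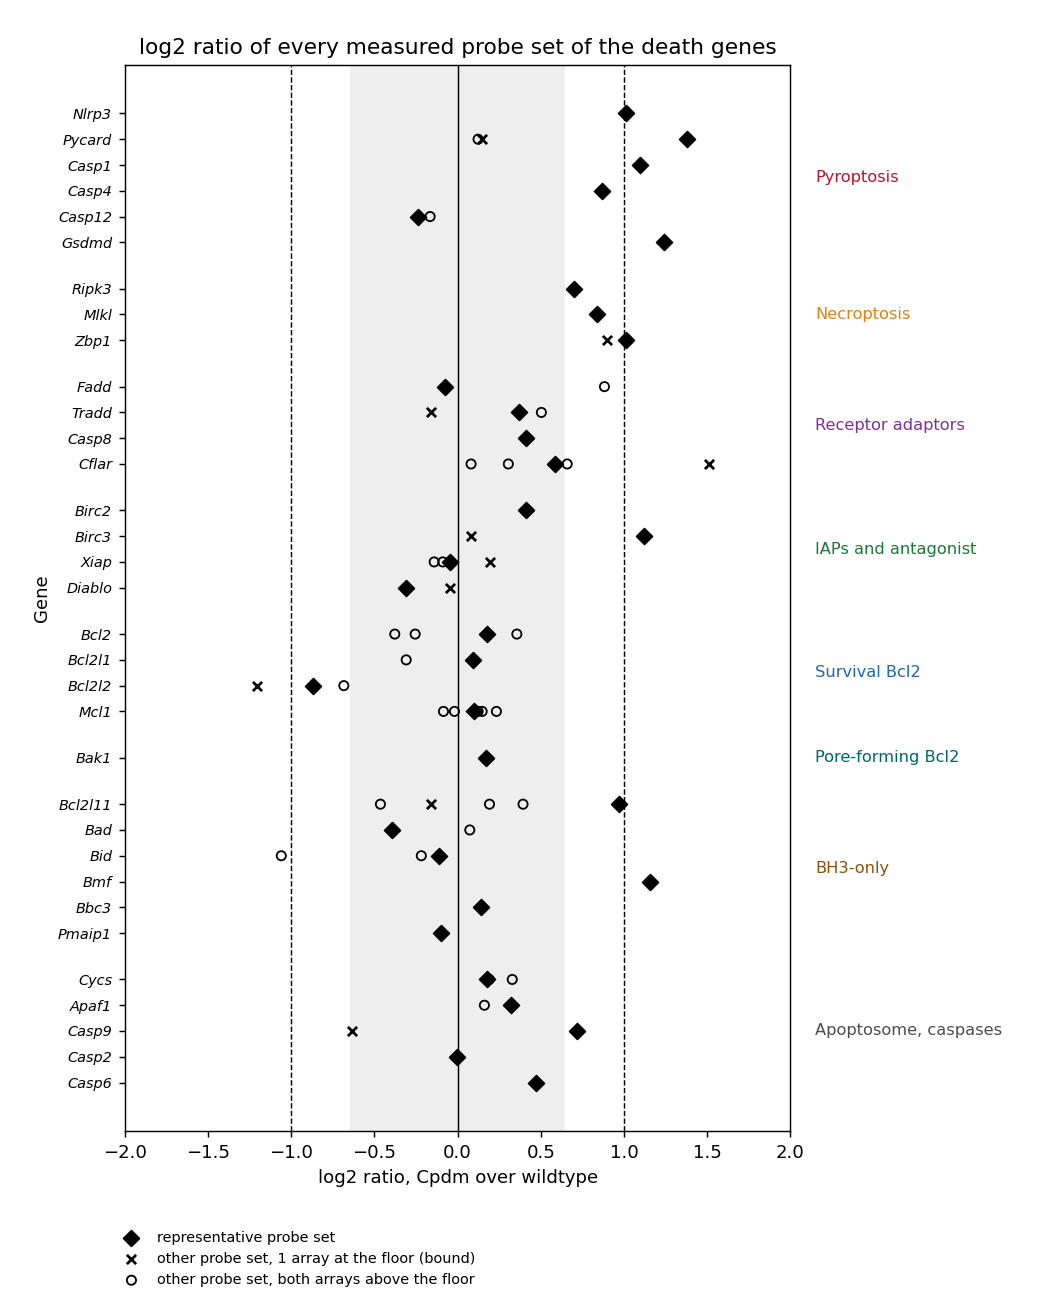
Log2 ratio of Cpdm over wildtype for every measured probe set of the 33 measured death genes, with the representative probe set as a diamond, other probe sets as circles, and those at the floor in 1 array as crosses, which are bounds. Dashed lines mark 2-fold and the grey band is 2 SD of the disagreement between probe sets (0.64 to either side): 12 genes lie above the band, where 13.8% of all measured genes do, and 1, Bcl2l2, below it, where 11.95% do, and the probe sets of Pycard, Bcl2l11, Bid and Fadd lie far apart.

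The pore-forming and BH3-only members gave a mixed picture. Bak1, which permeabilises the mitochondrial outer membrane, read 103 in Cpdm and 91.5 in wildtype. Bmf, a BH3-only gene whose product senses loss of cell attachment, read 127 in Cpdm against 56.8 in wildtype, or 2.23-fold higher, by a probe set that can bind related transcripts; its other probe sets lay below the floor, and its log2 ratio was 0.97 with a pseudocount in place of the floor. Bcl2l11 encodes BIM, the BH3-only protein of cytokine withdrawal, and its brightest probe set read 309 in Cpdm against 158 in wildtype, just under 2-fold. The other BIM probe sets whose signals cleared the floor in each array had log2 ratios of 0.39, 0.19 and -0.46, the widest range of any death gene, so that its direction depends on the probe set.

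The other BH3-only genes were near equal. Bbc3 and Pmaip1, the p53 targets that encode PUMA and NOXA, read 101 and 369 in Cpdm against 91.2 and 396 in wildtype. Bad read 193 in Cpdm against 254 in wildtype, and 203 against 193 by its second probe set. Bid, which caspase-8 cuts to link receptors to mitochondria, read 499 in Cpdm against 538 in wildtype. A dimmer Bid probe set was 2.08-fold lower in Cpdm, at 52.7 against 110. The median log2 ratio of the 6 measured BH3-only genes was 0.02, beside 0.03 over all measured genes.

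Genes of the apoptosome and of the remaining caspases were slightly higher, with a median log2 ratio of 0.32 over 5 genes and none past 2-fold. Cycs, which encodes cytochrome c, read 2238 in Cpdm and 1982 in wildtype. Apaf1, the scaffold that cytochrome c assembles, read 161 in Cpdm and 129 in wildtype. Casp9, the protease this scaffold activates, read 80.3 in Cpdm against 48.9 in wildtype, a log2 ratio of 0.72, while a second probe set read 7.54, below the floor, in Cpdm and 28.7 in wildtype, the opposite direction. Casp6, an effector caspase, read 275 in Cpdm and 198 in wildtype, and Casp2 was equal at 196 in both cultures.

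Grouped by death pathway, 5 of 9 measured genes of pyroptosis and necroptosis were at least 2-fold higher, with a median log2 ratio of 1.01, and 2 of 24 genes of the apoptosis machinery and its inhibitors, with a median of 0.17. The share of 8.33% in the apoptosis group lies close to the 5.84% of all genes. Probe sets of 1 gene did not always tell the same story: 15 death genes had at least 2 probe sets with both arrays over the floor, and in 6 of them the signs differed. Of the 7 genes past 2-fold, 4 had 1 measured probe set, and the other probe sets of Pycard, Zbp1 and Birc3 went the same way. For Pycard one of these was 1.09-fold higher, and the rest, of Pycard, Zbp1 and Birc3, lay below the floor in wildtype and give only lower bounds.

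**Figure D3:**
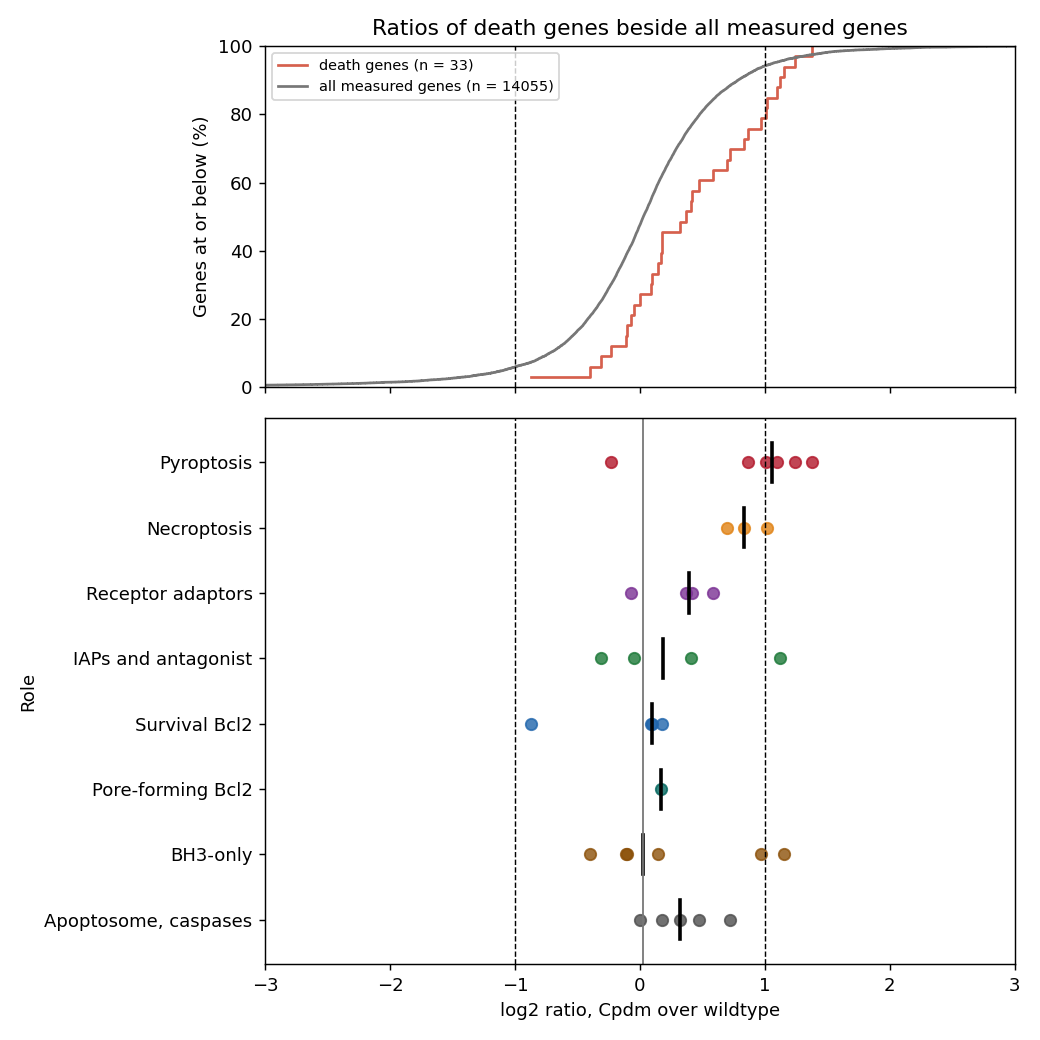
Cumulative share of genes by log2 ratio of Cpdm over wildtype for the 33 death genes and all 14055 measured genes (top), and the death genes by role with the median as a black bar (bottom). Dashed lines mark 2-fold and the grey line the median of all measured genes; the pyroptosis and necroptosis medians lie at 1.05 and 0.84, and the BH3-only median at 0.02.

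Most markers of macrophages were higher in Cpdm, as were most pyroptosis genes and most of the stromal markers described below. All 12 macrophage markers were above the floor in at least 1 array. Of these, 11 were higher in Cpdm and 3 at least 2-fold higher, where 52.4% and 5.84% of all measured genes were. None of the markers was at least 2-fold lower. Their median log2 ratio was 0.50, with a range from -0.40 to 3.11. The summed signal of the list was 23113 in Cpdm and 17487 in wildtype, a ratio of 1.32, and no defining marker was at 0 in either array. Cd68 read 3089 in Cpdm and 2545 in wildtype, Adgre1 2407 and 1228, and Lyz2, the only lower marker, 2657 and 3507. Past 2-fold were Marco, Cx3cr1 and Fcgr1. Cx3cr1 read 259 in Cpdm and 46.9 in wildtype, and Fcgr1 708 and 209. Csf1r was 1.37-fold higher by its brightest probe set and 2.38-fold and 2.18-fold by the others. The scavenger receptor gene Marco lay below the floor in wildtype only, at 162 in Cpdm and 7.09 in wildtype. The part of these cells in the pyroptosis values was not tested. In bulk cultures, more cells of a type and more RNA per cell cannot be told apart.

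Osteoblast markers moved the other way. Of 8 markers with a probe set, 7 were at least 2-fold lower in Cpdm and none was higher, with a median log2 ratio of -3.08, a summed signal of 4933 in Cpdm and 14955 in wildtype, and Phex, at 9.66 in Cpdm and 825 in wildtype, the only one below the floor in an array. Stromal markers had a median of 0.91 over 8 genes, and their summed signal was 5892 in Cpdm and 2917 in wildtype. Col3a1 was the brightest of them, at 3080 in Cpdm and 1505 in wildtype. They went both ways, 6 above 0 and 2 below: Pdgfra read 57.0 in Cpdm against 134 in wildtype, and Lepr 42.7 against 45.9. Neutrophil markers were dim and had a median of -0.43 over 6 measured genes, while osteoclast markers had a median of -0.24 over 4. Mast cell and basophil markers had a median of 0.16 over 4 and went both ways. Among them Mcpt8 read 117 in Cpdm against 22.4 in wildtype, and Kit 20.4 against 48.7. Of T and NK cell, endothelial, erythroid and B cell markers, between 1 and 3 per list were above the floor. The death genes were therefore compared between cultures whose marker profiles differed, and this cannot be told apart from genotype.

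Further genes of the same pathways were followed from a list of 70, of which 59 had a probe set and 55 were measured. At least 2-fold higher were 5 (9.09%), near the 5.84% of all measured genes, and at least 2-fold lower was 1, where 5.98% of all measured genes pass. The median log2 ratio was 0.32. By list, 4 of the 5 genes were death receptors or ligands, of which 7 were measured. Tnfrsf21, death receptor 6, read 348 in Cpdm against 86.6 in wildtype, and 151 against 75.0 by its other probe set. Fas, the receptor that recruits FADD, read 175 in Cpdm against 63.2 in wildtype, and Tnf, the cytokine, 83.2 against 29.0. Fas and Tnf each rest on 1 probe set, and that of Tnf was dim in wildtype.

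Tnfrsf1b, the TNF receptor without a death domain, was 2.06-fold higher by its brighter probe set and 1.08-fold by the other. Tnfrsf1a, the TNF receptor with a death domain, was near equal at 647 in Cpdm and 706 in wildtype. The death receptors were therefore not shifted alike, and Fasl lay below the floor in both arrays.

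Inflammasome genes beyond the members were higher by a smaller median than the pyroptosis members, although Naip5, at a log2 ratio of 1.38, equalled Pycard. Naip5, a sensor of bacterial flagellin, read 142 in Cpdm against 54.7 in wildtype. Its relatives Naip2 and Naip6 were 1.80-fold and 1.53-fold higher, and probe sets of these genes may bind each other's transcripts. Ninj1, which ruptures the plasma membrane after gasdermin pores form, was 1.71-fold higher by its brightest probe set and 2.46-fold, 2.44-fold and 1.41-fold by the others. The cytokine precursor genes Il1b and Il18, whose products caspase-1 cuts, were 1.09-fold and 1.28-fold higher: Il1b read 54.6 in Cpdm and 50.2 in wildtype, and Il18 225 and 177. All 9 measured genes of this list were above 0 by their brightest probe sets, with a median of 0.36, while 52.4% of all measured genes were above 0. Dimmer probe sets of Gsdme and Nek7 lay below 0, at log2 ratios of -0.28 and -0.19, and another of Nek7 was at 0.02.

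Genes of the TNF receptor signalling complex went both ways. Tnfaip3, which encodes the NF-κB feedback inhibitor A20, Cyld, a deubiquitinase of linear chains, and Rbck1, the partner of SHARPIN in the ligase, were 1.75-fold, 1.75-fold and 1.76-fold higher in Cpdm, and Ikbkg and Map3k7, of the downstream kinase complexes, were 1.59-fold and 1.66-fold lower by their brightest probe sets. A single probe set of each went the other way: that of Map3k7 read 123 in Cpdm and 80.5 in wildtype, and that of Ikbkg 155 and 118. All other probe sets of both genes were lower in Cpdm, some of Map3k7 only slightly. An Ikbkg probe set that was not the brightest was 2.20-fold lower, at 123 in Cpdm against 272 in wildtype. A dim Cyld probe set read 5.27, below the floor, in Cpdm and 24.1 in wildtype. None of the 12 genes passed 2-fold by its brightest probe set, and the median was 0.09. Among other mitochondrial death genes, Bcl2l13, a Bcl2 relative, was 2.02-fold lower at 79.0 in Cpdm and 160 in wildtype, and 1.67-fold lower by its second probe set. Bok, a pore-forming relative of BAX, read 187 in Cpdm against 94.9 in wildtype, or 1.97-fold higher.

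**Figure D4:**
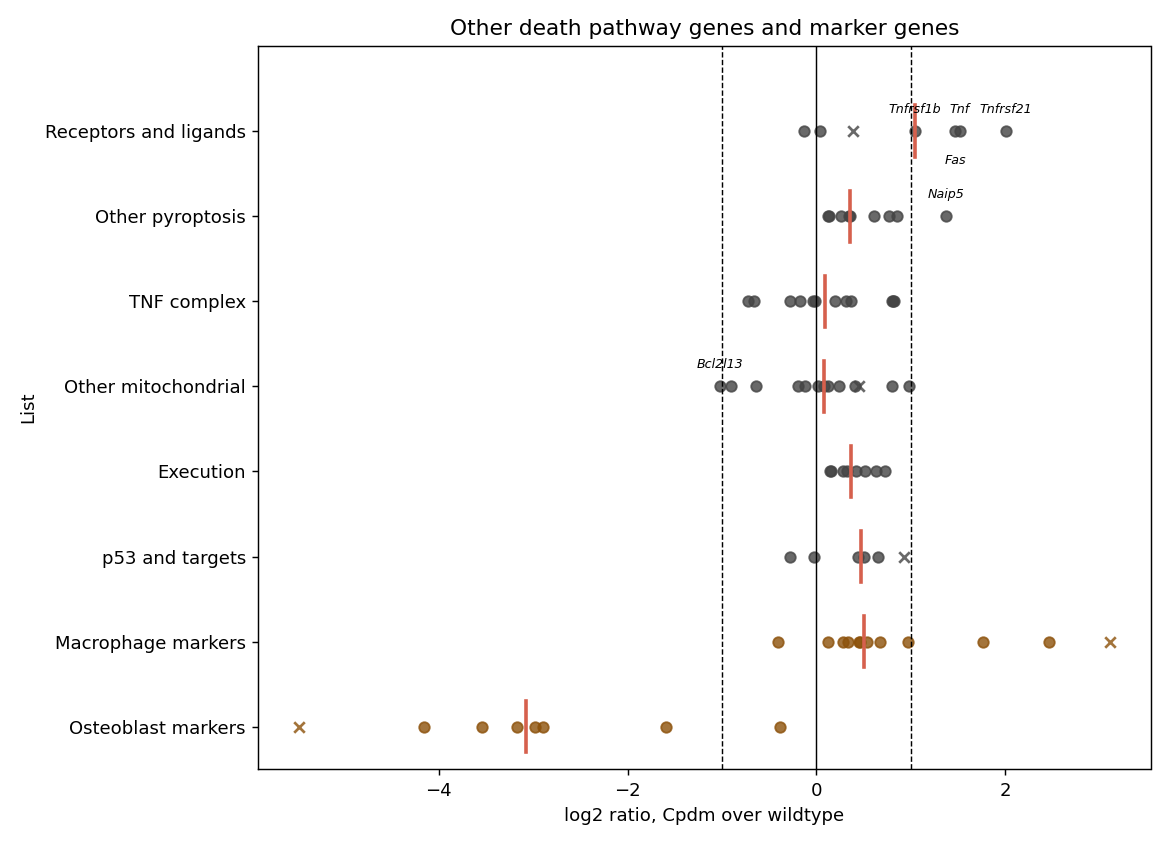
Log2 ratio of Cpdm over wildtype of further death pathway genes (grey) and of macrophage and osteoblast markers (brown), 1 point per measured gene, crosses for bounds, with red bars for medians and dashed lines at 2-fold. Genes past 2-fold in the pathway lists are named; the macrophage median is 0.50 and the osteoblast median -3.08.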

How the data were processed

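The authors deposited linear MAS5 signals (intensity values) for 45101 probe sets, with a column for each array. The submitters' processing notes name GCOS 1.4 and MAS5. Per the labels' protocols, biotin-labelled cRNA was made from 5 µg of total RNA by in vitro transcription. The sources used here give no detection calls, background settings or genome build. The mean signal after trimming 2% of probe sets from each end was 99.7 in Cpdm and 99.6 in wildtype, and the deposited scaling was kept.

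Probe sets were named from the platform annotation; all 34 member symbols matched a current RefSeq gene by Entrez number. The script functions were tested on simulated data. Python 3.11.15, numpy 2.4.6 and pandas 2.3.3 were used. Median signals were 27.6 in Cpdm and 28.1 in wildtype, and the number of arrays limits the precision. Folds with a signal below the floor in 1 array are bounds. All members are named by rule, and other pathway genes where they passed 2-fold; Casp12, Ninj1 and other pathway genes under 2-fold were chosen for mention after their values were seen. Members and gene lists were chosen with earlier results of these data known. Alternatives covered the floor, the scaling, the choice of probe set and the fold rule.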

Additional observations from a re-analysis of the deposited data

How the results depend on the processing

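The number of death genes at least 2-fold higher in Cpdm was 7, and 6 or 7 under no floor, other floors, median, quantile and spike-in scaling. It was 4 with a pseudocount of 16 in place of the floor (Birc3, Casp1, Gsdmd and Pycard), 4 with the mean over probe sets (Bmf, Casp1, Gsdmd and Nlrp3), 4 without probe sets of the _s_at, _x_at and _a_at kinds (Casp1, Gsdmd, Nlrp3 and Pycard) and 13 with the 1.5-fold rule. Casp1 and Gsdmd passed 2-fold in every setting run. Each has 1 probe set, not of those kinds and above the floor in both arrays. The other floors and the probe set settings therefore could not change their ratios. The number at least 2-fold lower was 0 in every setting run except the 1.5-fold rule, which gave 1. The background moved too: 3.51% of all genes were higher with the pseudocount, 4.81% with the mean over probe sets and 5.86% without those probe sets. Without a floor it was 9.57%. Further pathway genes higher in Cpdm were 17 with the 1.5-fold rule and between 4 and 7 in the other settings. The count was 4 with the floor at the 60th percentile and 7 without a floor. Further pathway genes lower in Cpdm were 5 with the 1.5-fold rule, 0 with the pseudocount, 0 with median scaling and 2 without those probe sets (Bcl2l13 and Endog). The cause of these shifts beyond the stated construction was not tested. The median log2 ratio of all death genes stayed between 0.24 and 0.40, that of pyroptosis between 0.94 and 1.08 and that of necroptosis between 0.66 and 0.86. The medians of survival Bcl2 and BH3-only genes crossed 0, with ranges of -0.07 to 0.13 and -0.10 to 0.04. Of 295 values of single genes, 287 moved by less than the SD between probe sets, but many had no room to move. No measured death gene was set to the floor by its brightest probe set, so a lower floor or none left the ratios unchanged. With the floor at the 60th percentile, Zbp1 fell below it in both arrays and had no ratio, which left 32 measured genes. The ratios of those 32 genes were unchanged. Median and spike-in scaling shift all genes alike and only slightly, Casp1 from 1.10 to 1.12 and 1.09. The 8 larger moves were Zbp1 with the pseudocount, Birc3 without those probe sets, and the rest with the mean over probe sets. That mean moved Pycard, Fadd, Birc3, Bcl2l11, Bid and Casp9. Without the _s_at, _x_at and _a_at probe sets Birc3 had a log2 ratio of 0.08, a lower bound from a dim probe set below the floor in wildtype. With the mean over probe sets Pycard had 0.55, Birc3 0.60, Bcl2l11 0.19 and Casp9 0.04. No paired analysis was possible because each genotype has 1 array, and for the same reason no replicate could be left out. Dim signals limit the folds of Zbp1, of Tnf and of second probe sets near the floor.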

Other observations

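The machinery that dismantles dying cells was measured as a separate list. All 8 measured genes of the execution list lay above 0 by their brightest probe sets, with a median log2 ratio of 0.37, and none passed 2-fold. Second probe sets of Acin1, Xkr8, Dffa and Dffb lay below 0, at log2 ratios of -0.07, -0.15, -0.43 and -0.51. Those of Dffa and Dffb were below the floor in Cpdm and are bounds. Of all measured genes, 52.4% lay above 0. Rock1, a kinase that caspases activate to drive membrane blebbing, read 501 in the Cpdm culture against 303 in the wildtype culture. Panx1, a channel that caspases open to release nucleotides, read 130 in Cpdm against 83.8 in wildtype, and Parp1, a classical caspase substrate, read 462 against 323.

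Targets of p53 did not move as a block. Of 6 measured genes, none passed 2-fold and the median log2 ratio was 0.47. Zmat3 and Mdm2 were 1.58-fold and 1.42-fold higher in Cpdm, a second Mdm2 probe set read 188 in Cpdm and 193 in wildtype, and the cell cycle inhibitor gene Cdkn1a read 1870 in Cpdm against 2273 in wildtype and Trp53inp1 1156 against 1179. Perp read 35.5 in Cpdm and 17.6, below the floor, in wildtype, a fold of at least 1.90.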
